A study of Homo sapiens with 2 samples.

Results

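Glycolysis and hypoxia response genes were examined in the established human lung cancer line HCC15, squamous by its label, after knockdown of CTNNB1, the gene of beta-catenin. Of 39 genes chosen, 36 had at least 1 probe set annotated to that symbol alone, 87 probe sets in all, out of 19775 genes so annotated on the array. They were split by role into 17 glycolytic enzymes, 7 transporters and PFKFB enzymes, and 15 other hypoxia genes. The groups were 1 culture given an siRNA against CTNNB1 and 1 culture given a control siRNA, both collected 48 h after transfection and grown in RPMI medium with 5% serum. Oxygen and glucose conditions, the target of the control siRNA, and the meaning of the word Tax in that sample's title are not given in the labels. Each group was 1 biotin-labelled expression array, so no value has a replicate, no test between the groups was possible, and every difference also holds any difference between the 2 cultures and hybridisations. Because whole cultures were measured, fewer cells expressing a gene and less RNA per cell cannot be told apart.

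Glycolysis splits glucose into pyruvate through a chain of cytosolic enzymes, and lactate dehydrogenase turns pyruvate into lactate, which leaves the cell through SLC16A transporters. When oxygen is low, prolyl hydroxylases of the EGLN family no longer mark the HIF alpha subunits for the ubiquitin ligase component VHL, and HIF then binds sites with the core ACGTG or GCGTG near its target genes. Many glycolytic enzyme genes and genes of pH control, mitophagy, collagen hydroxylation and blood vessel growth are known HIF targets, and many lung cancers take up glucose at a high rate.

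The values are linear MAS5 signal intensities, 1 per probe set and array. A gene was read from its brightest probe set among those entering, meaning a mean signal of at least 49.1, the median of all values, and a log2 ratio is CTNNB1 siRNA over control siRNA. Of the 36 genes, 35 entered. VHL did not, with signals of 35.2 on the CTNNB1 siRNA array and 48.8 on the control array for its brighter probe set. SLC16A1 and SLC16A3, lactate transporters, and CA9, a carbonic anhydrase, had no probe set listed under that symbol alone, and their signals were not analysed here. As the only available measure of error, log2 ratios of entering probe sets of the same gene had a pooled SD of 0.42 over 5791 genes, called the probe set SD below. It holds isoform differences and the error of single probe sets, and leaves out how cultures vary.

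The brightest probe set of CTNNB1 itself read 339 on the CTNNB1 siRNA array, against 1224 on the control array, a log2 ratio of -1.85. Its other 2 entering probe sets gave -0.97 and -0.13, the last at 91.3% of the control signal. All 12531 entering genes had a median log2 ratio of 0.15, and by deciles of mean signal it ran from -0.23 in the dimmest to 0.27 in the brightest. The 18 hybridisation spike-in probe sets had a median log2 ratio of -0.01, from -0.40 to 0.08. The 3′ to 5′ signal ratio of the array's GAPDH control probe sets, a sign of RNA integrity, was 1.14 on the CTNNB1 siRNA array and 1.16 on the control array, and that of the ACTB control probe sets was 1.93 on the CTNNB1 siRNA array and 1.97 on the control array. All 5 epithelial markers entered, whereas of 4 squamous markers with a probe set only SOX2 did, at 41.6 on the CTNNB1 siRNA array and 60.1 on the control array. TP63 and KRT6A, also on the squamous list, had no probe set listed under that symbol alone and were not read. Of 5 lung adenocarcinoma markers 4 entered, SFTPC at 191 on the CTNNB1 siRNA array and 107 on the control array, and NKX2-1 did not. SFTPB, MUC1 and NAPSA read 172, 116 and 65.6 on the CTNNB1 siRNA array, and 165, 92.2 and 56.2 on the control array. KRT5, KRT14 and DSG3, which define squamous epithelium, lay under the signal filter. Of 4 leukocyte, 5 fibroblast and 5 endothelial markers with a probe set, 1, 3 and 1 entered. The summed signals of these lists were 134, 309 and 149 on the CTNNB1 siRNA array, and 176, 385 and 188 on the control array. No defining marker of these 3 lists was at 0, but some lay at or under 13.8, the floor set for low signals. On the CTNNB1 siRNA array PTPRC, VWF, TEK and KDR read 3, 8.9, 13.4 and 13.8. On the control array they read 25.9, 8.1, 30.1 and 14, so only VWF was under the floor on both arrays. A signal above 0 does not show that such cells were present, and any part of such cells in the results was not tested.

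The glycolytic enzymes had log2 ratios close to each other, and the other hypoxia genes were about as widely spread as all genes, whose log2 ratios had an SD of 0.48. The 17 enzymes had a median log2 ratio of 0.21, and their ratios ran from -0.22 to 0.47 with an SD between genes of 0.17. The 13 entering hypoxia genes had a median of 0.09 and ran from -1.07 to 0.9996, with an SD between genes of 0.55. Of the enzymes 0 were at least 2-fold higher or lower, against 4.67% of all entering genes either way. In the brightest decile of signal, which held 11 of the 17 enzymes, only 0.40% of all genes were at least 2-fold higher and 0.16% lower. Among all 35 members 1 was at least 2-fold lower, ANKRD37, and 0 were at least 2-fold higher, against 2.38% and 2.29% of all genes. With a 1.5-fold rule 3 members were lower and 2 higher, where 7.61% and 11.2% of all genes were. Ratios above 0 were found for 16 of 17 enzymes and 9 of 13 hypoxia genes, with 64% of all genes above 0. That 64% covers genes of any signal, whereas genes of the brightest decile had a median log2 ratio of 0.27. After loess normalization the enzyme median was -0.03, so the count above 0 depends on the scaling.

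**Figure D1:**
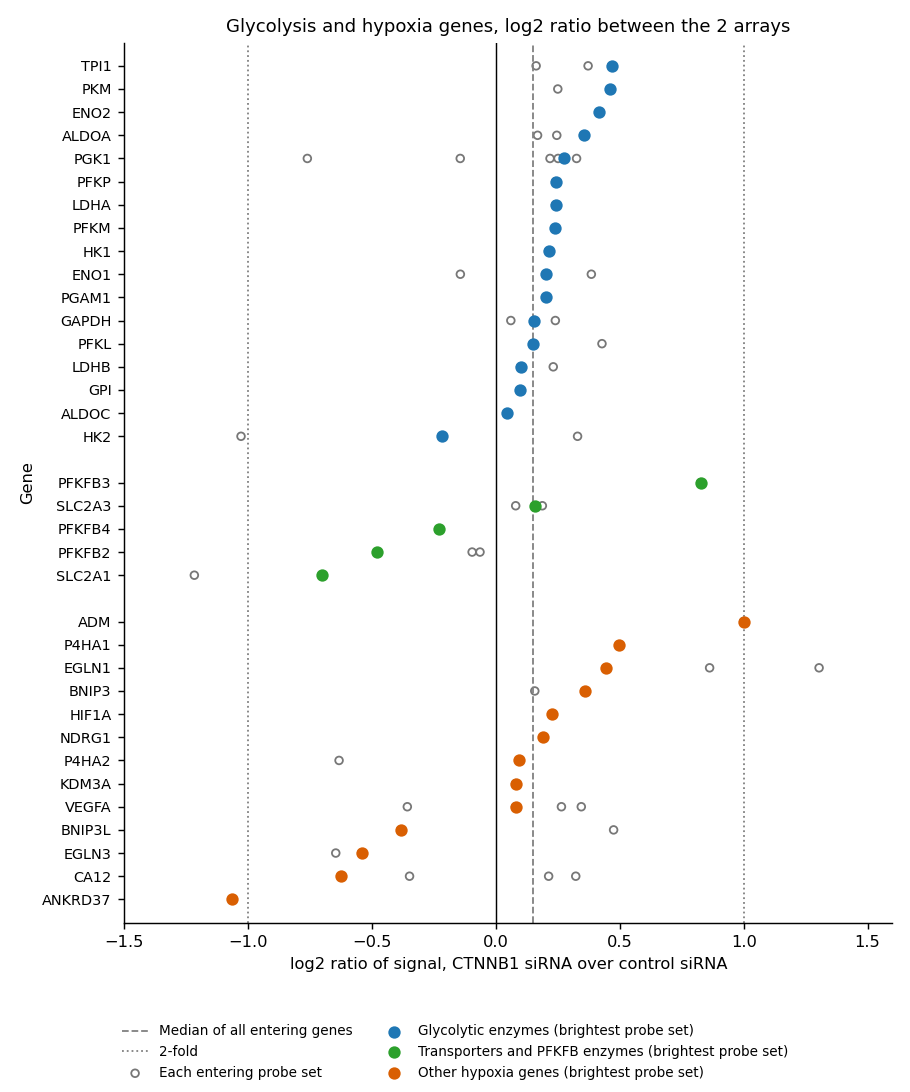
Log2 ratio of signal, CTNNB1 siRNA over control siRNA (x axis), for the 35 entering genes (y axis, by role). Filled points are each gene's brightest probe set, open circles its other entering probe sets, the dashed line is the median of all entering genes (0.15) and dotted lines mark 2-fold; the enzymes lie between -0.22 and 0.47 and the other hypoxia genes between -1.07 and 0.9996.

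The difference between the 2 group medians, enzymes minus other hypoxia genes, was 0.12, and with 1 array per group it could not be tested. It ranged from 0.06 to 0.15 over the alternatives tried. Signal strength moved with the width of each group. In the brightest decile of genes, which held 11 of the 17 enzymes and 4 of the 13 hypoxia genes, log2 ratios of all genes had an SD of 0.24, whereas in the dimmest decile the SD was 0.68. Within that brightest decile the 11 enzymes ran from 0.10 to 0.47 with an SD of 0.13, and the 4 hypoxia genes from 0.23 to 0.9996 with an SD of 0.34. The highest of these 4 was ADM, which has 1 probe set. HIF1A, BNIP3 and EGLN1 had 0.23, 0.36 and 0.44, within the range of the enzymes. Set against the median of their own decile of signal, 6 of 17 enzymes and 4 of 13 hypoxia genes lay above it. The median distance from it was -0.04 for the enzymes and -0.12 for the hypoxia genes.

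**Figure D2:**
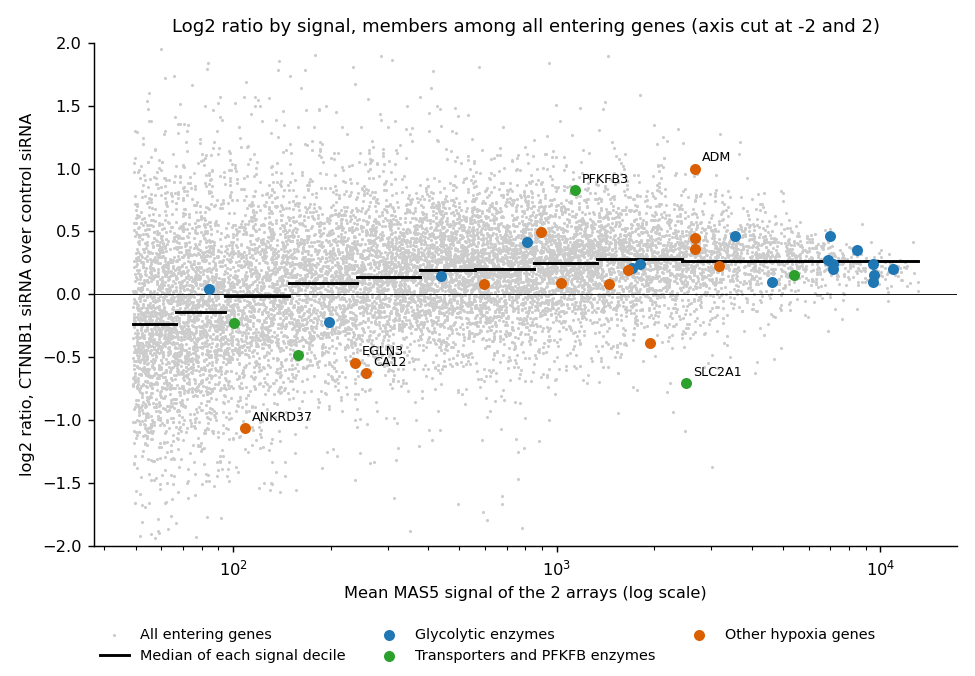
Log2 ratio, CTNNB1 siRNA over control siRNA (y axis), against mean MAS5 signal of the 2 arrays (x axis, log scale), for all entering genes in grey and the members in colour. Black bars are the median of each decile of signal, from -0.23 to 0.27 at the ends; ADM and PFKFB3 lie above the bars, and SLC2A1, CA12, EGLN3 and ANKRD37 below.

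Glucose entry was represented by 2 transporter genes, with opposite signs on the deposited scale. SLC2A1, which encodes GLUT1, the widespread basal glucose transporter, had a signal of 1904 on the CTNNB1 siRNA array, against 3098 on the control array, a log2 ratio of -0.70. Its other entering probe set read 199 with CTNNB1 siRNA, against 463 with control siRNA, a log2 ratio of -1.22. Both probe sets were thus lower with CTNNB1 siRNA by more than the probe set SD, and only the dimmer one passed 2-fold. Only 5.41% of all entering genes had a lower log2 ratio than the brighter one. SLC2A3, which encodes the high-affinity transporter GLUT3, read 5691 on the CTNNB1 siRNA array, against 5104 on the control array, a log2 ratio of 0.16. Its 3 entering probe sets ran from 0.08 to 0.19, and probe sets of this gene can also read the near-identical SLC2A14. Over the alternatives tried SLC2A3 ran from -0.12 to 0.29, so its sign depends on the processing. The promoter of SLC2A1 is shown because this gene had one of the 4 ratios farthest from 0 among the members. It is the 250 bases before the annotated start, from RefSeq on GRCh38.p14, minus strand, chr1:42958869-42959118, and holds neither ACGTG nor GCGTG on either strand, so no letters are in capitals.
SLC2A1: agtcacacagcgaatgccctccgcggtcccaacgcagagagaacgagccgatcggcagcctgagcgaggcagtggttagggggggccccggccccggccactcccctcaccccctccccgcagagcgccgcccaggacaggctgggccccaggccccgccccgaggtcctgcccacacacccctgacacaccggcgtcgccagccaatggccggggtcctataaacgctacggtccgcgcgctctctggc

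The first steps of glycolysis trap glucose and commit it. HK1, the housekeeping hexokinase, had a signal of 1829 with CTNNB1 siRNA, against 1579 with control siRNA (log2 ratio 0.21). HK2, the hexokinase induced in many tumours, read 183 on the CTNNB1 siRNA array, against 213 on the control array. Its log2 ratio of -0.22 was the only one below 0 among the enzymes, and its 3 entering probe sets disagreed, from -1.03 to 0.33. GPI, which isomerises glucose 6-phosphate, read 4789 with CTNNB1 siRNA, against 4480 with control siRNA (0.10). The 3 phosphofructokinase genes, whose products make the committed step, were alike in ratio. PFKP had 0.24, PFKM 0.24 and PFKL 0.15.

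The enzymes from aldolase to lactate dehydrogenase had log2 ratios above 0 in their brightest probe sets, from 0.04 to 0.47. ALDOA, the main aldolase, read 9534 on the CTNNB1 siRNA array, against 7460 on the control array (0.35), while the brain-type ALDOC was dim at 85.2 with CTNNB1 siRNA and 82.6 with control siRNA (0.04). TPI1, triose phosphate isomerase, had the highest ratio among the enzymes, 0.47, with a signal of 8114 with CTNNB1 siRNA and 5870 with control siRNA. Its other 2 entering probe sets gave 0.16 and 0.37. GAPDH, often used as a loading control, read 10093 with CTNNB1 siRNA, against 9066 with control siRNA (0.15). The 3 GAPDH control probe sets of the array gave 0.14, 0.17 and 0.19. Of all entering genes, 50.5% had a lower ratio than the brightest GAPDH probe set.

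PGK1, the first ATP-producing enzyme of the chain, had a log2 ratio of 0.28, and its 4 brightest probe sets ran from 0.22 to 0.33, although 2 dim ones gave -0.14 and -0.76. PGAM1, phosphoglycerate mutase, had 0.20. ENO1, the widespread enolase, read 11735 on the CTNNB1 siRNA array, against 10195 on the control array (0.20), with -0.14 and 0.39 in its other entering probe sets, and the neuronal-type ENO2 had 0.42. PKM, pyruvate kinase, read 4124 with CTNNB1 siRNA, against 2995 with control siRNA (0.46). The lactate dehydrogenase genes LDHA and LDHB had 0.24 and 0.10. Of the 17 enzymes, only TPI1 and PKM exceeded the probe set SD, where 33.1% of all genes did in either direction. That SD and that share include dim genes, whereas 11 of the 17 enzymes lay in the brightest decile. Among probe sets with a mean signal of at least 209 the probe set SD was 0.29, which ALDOA and ENO2 also exceeded. The share of all bright genes past 0.29 was not counted, and the brightest decile itself had a median log2 ratio of 0.27. ALDOA and ENO2 lay 0.09 and 0.21 above the medians of their own deciles of signal.

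**Figure D3:**
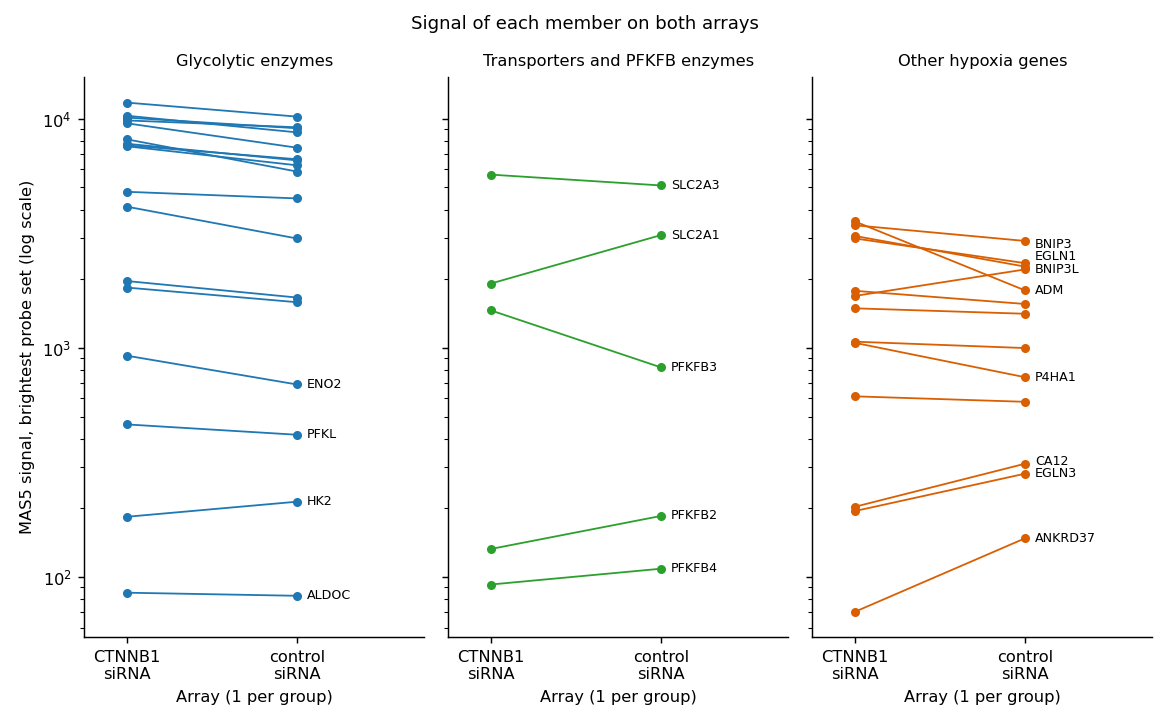
MAS5 signal of each member's brightest probe set (y axis, log scale) on the CTNNB1 siRNA array (left) and the control siRNA array (right), 1 array per group, in 3 panels by role. Lines join the same probe set; heights of different probe sets are not comparable, and 16 of 17 enzyme lines are higher on the CTNNB1 siRNA side, while lines of the other panels go both ways.

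The PFKFB enzymes make and remove fructose 2,6-bisphosphate, the activator of phosphofructokinase, and their genes differed. PFKFB3, the isoform with the highest kinase activity relative to phosphatase activity, had a signal of 1455 on the CTNNB1 siRNA array, against 820 on the control array. Its log2 ratio of 0.83 was the highest outside ADM among the members, and it has 1 probe set, whose name ends in _s_at and which can read more than 1 transcript. PFKFB2, the heart-type isoform, read 132 with CTNNB1 siRNA, against 184 with control siRNA (-0.48), with -0.06 and -0.10 in its dimmer probe sets. PFKFB4 was dim, at 92.5 with CTNNB1 siRNA and 108 with control siRNA (-0.23). For PFKFB3, 2 annotated starts are given by RefSeq on GRCh38.p14, plus strand, chr10:6144671-6144920 and chr10:6202682-6202931, and are shown in that order because the array does not tell them apart. Capitals mark ACGTG or GCGTG on either strand. The first window holds 1 match, and the second holds the palindrome CACGTG, which counts as 2.
PFKFB3, first start: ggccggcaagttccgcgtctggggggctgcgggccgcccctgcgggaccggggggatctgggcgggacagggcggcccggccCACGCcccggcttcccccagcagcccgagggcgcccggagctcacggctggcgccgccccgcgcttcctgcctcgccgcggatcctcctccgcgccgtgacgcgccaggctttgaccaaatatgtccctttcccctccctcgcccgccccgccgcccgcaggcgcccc
PFKFB3, second start: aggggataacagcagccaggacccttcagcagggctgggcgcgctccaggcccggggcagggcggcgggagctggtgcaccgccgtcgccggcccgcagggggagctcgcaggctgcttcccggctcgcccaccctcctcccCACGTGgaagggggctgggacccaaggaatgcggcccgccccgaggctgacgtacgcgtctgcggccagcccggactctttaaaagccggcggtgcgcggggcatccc

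Among the other hypoxia genes, ADM had the highest and ANKRD37 the lowest log2 ratio of all members. ADM, which encodes the vasodilator peptide adrenomedullin, had a signal of 3556 on the CTNNB1 siRNA array, against 1779 on the control array. Its log2 ratio of 0.9996 lay just under the 2-fold rule, and 97.7% of all genes had a lower ratio. ADM has 1 probe set, so no second reading was available. ANKRD37, an ankyrin repeat gene known as a HIF target, read 70.3 with CTNNB1 siRNA, against 147 with control siRNA, a log2 ratio of -1.07. It was dim, in the third decile of signal, where 3.75% of all genes were at least 2-fold lower, and its second probe set was below 4 on both arrays and gave no ratio. These 2 genes, both HIF targets, thus differed in opposite directions. Their promoters are shown as the members with the highest and the lowest ratio, each 250 bases before the start on the plus strand of GRCh38.p14, from RefSeq, ADM at chr11:10304823-10305072 and ANKRD37 at chr4:185396591-185396840, with ACGTG or GCGTG on either strand in capitals.
ADM: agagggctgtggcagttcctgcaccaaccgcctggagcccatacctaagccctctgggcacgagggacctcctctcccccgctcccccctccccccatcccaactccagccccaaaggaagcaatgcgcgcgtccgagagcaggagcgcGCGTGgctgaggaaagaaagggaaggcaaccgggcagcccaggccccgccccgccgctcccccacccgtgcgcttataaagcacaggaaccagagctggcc
ANKRD37: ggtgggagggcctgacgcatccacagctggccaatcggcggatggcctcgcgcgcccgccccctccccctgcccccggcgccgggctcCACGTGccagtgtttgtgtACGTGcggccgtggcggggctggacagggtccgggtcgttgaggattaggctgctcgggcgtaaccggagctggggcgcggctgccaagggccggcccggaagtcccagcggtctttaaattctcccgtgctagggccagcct
The ADM window holds 1 match and the ANKRD37 window 3, of which 2 overlap in CACGTG. A match is not a site shown to be bound.

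VEGFA, the main growth factor for blood vessels and a classical HIF target, was close to even. Its brightest probe set read 1485 on the CTNNB1 siRNA array, against 1406 on the control array (0.08), and its other 3 entering probe sets ran from -0.36 to 0.34. CA12, a cell surface carbonic anhydrase of pH control, read 202 with CTNNB1 siRNA, against 311 with control siRNA (-0.62). Its 5 entering probe sets did not go one way, with 3 below 0 and 2 above 0, from -0.63 to 0.32. NDRG1, a stress-induced gene, had 0.19, and its 1 probe set read 1770 with CTNNB1 siRNA and 1551 with control siRNA.

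BNIP3 and BNIP3L encode related mitochondrial receptors for mitophagy. BNIP3 read 2997 on the CTNNB1 siRNA array, against 2338 on the control array (0.36), and 0.16 in its other probe set. BNIP3L read 1681 with CTNNB1 siRNA, against 2194 with control siRNA (-0.38), but its other probe set read 825 with CTNNB1 siRNA and 594 with control siRNA (0.47). No direction can be given for BNIP3L. Among the enzymes that hydroxylate procollagen prolines, P4HA1 had a signal of 1050 with CTNNB1 siRNA, against 743 with control siRNA (0.50), and P4HA2 had 0.09 with a second probe set at -0.63. KDM3A, a histone H3 lysine demethylase, had 0.08.

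The oxygen sensing genes were not alike. HIF1A, the oxygen-regulated HIF subunit, which is controlled mainly through protein stability, read 3421 on the CTNNB1 siRNA array, against 2922 on the control array (0.23). EGLN1, which encodes PHD2, the main HIF prolyl hydroxylase, read 3072 with CTNNB1 siRNA, against 2258 with control siRNA (0.44). Its other 2 entering probe sets were higher still, at 0.86 and 1.30, and the last read 551 with CTNNB1 siRNA and 223 with control siRNA. EGLN3, which encodes the strongly hypoxia-inducible PHD3, read 194 with CTNNB1 siRNA, against 282 with control siRNA (-0.54), and -0.65 in its second probe set. All entering probe sets of each EGLN gene thus went one way, upward for EGLN1 and downward for EGLN3 on the deposited scale. Of these, only the brightest EGLN1 probe set has a name that ends in neither _x_at nor _s_at, and after loess it had 0.17. Each of the others can read more than 1 transcript.

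Related genes were set side by side because a difference between 2 log2 ratios does not change when 1 factor scales a whole array. It can change with scaling that depends on signal and with the probe set read. After loess PFKFB3 had 0.57 and PFKFB4 -0.22, against 0.83 and -0.23 as deposited. Read as the median of its probe sets, PFKFB2 had -0.10, against -0.48 in its brightest one. Of 13 pairs of paralogues, 5 were further apart than 0.60, the probe set SD times the square root of 2. That is 38.5% of these pairs, and 33.1% of all possible pairs of entering genes were that far apart, so the count is near the background. PFKFB3 stood 1.30 above PFKFB2 and 1.05 above PFKFB4. EGLN1 stood 0.99 above EGLN3, SLC2A1 stood 0.86 below SLC2A3 (-0.86), and BNIP3 stood 0.74 above BNIP3L. All the pairs within glycolysis itself were closer, from 0.00 for PFKP and PFKM to -0.43 for HK2 and HK1. The second BNIP3L probe set, at 0.47, lies above BNIP3, so that pair does not hold across probe sets.

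**Figure D4:**
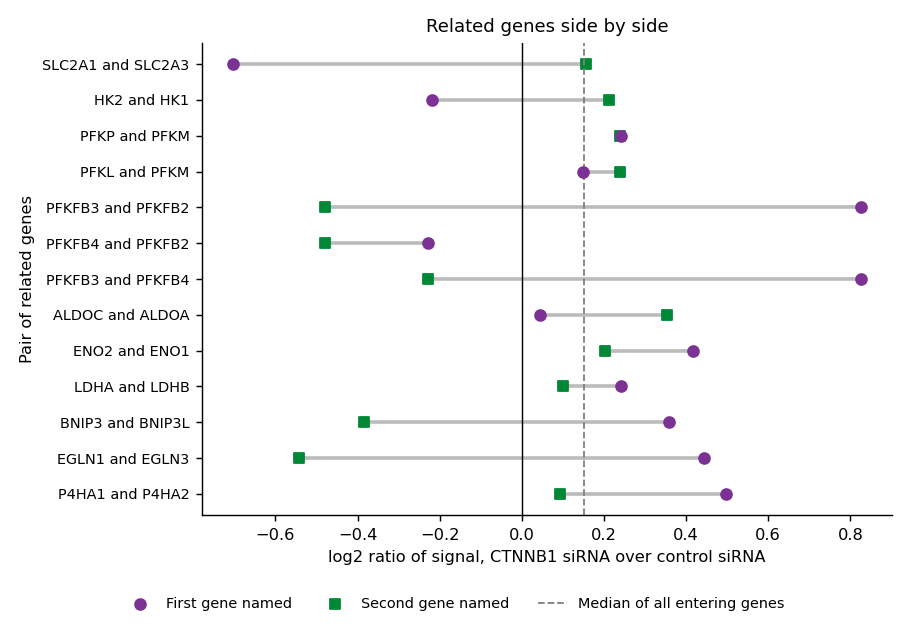
Log2 ratio, CTNNB1 siRNA over control siRNA (x axis), for 13 pairs of related genes (y axis), read from each gene's brightest probe set; circles are the first gene named, squares the second, and the dashed line is the median of all entering genes (0.15). The 3 widest gaps are 1.30, 1.05 and 0.99, and the glycolytic enzyme pairs are within 0.43 of each other.

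Of 19 members with several entering probe sets, 9 had all of them above 0, 3 all below 0 and 7 both signs. In 2 members, HK2 and PGK1, probe sets were more than 1 apart on the log2 scale. The other 16 members rest on 1 probe set. Signals under 13.8, the 25th percentile of all values, were set to that floor, and no entering member had one, so no ratio given is a bound.

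Promoter windows were available for 32 of the 39 genes, with none for SLC2A3, SLC16A1, PFKFB2, BNIP3L, NDRG1, VHL and VEGFA. In the 250 bases before the start, ACGTG or GCGTG on either strand was found in 35 of 59 member windows, 59.3%, and in 43.2% of all 35116 windows. By window it was in 19 of 37 for the enzymes, 51.4%, and in 10 of 13 for the other hypoxia genes, 76.9%. Counted by gene, at least 1 window held it for 14 of 17 enzymes, 9 of 11 other hypoxia genes and 47.4% of all genes in the table. Genes differ in their number of windows, so the count by gene favours genes with many. CA9 and SLC16A3, whose signals were not read, are among the genes with a window. The TCF/LEF letters CTTTGAT or CTTTGAA, on either strand, were in 0 of the 59 member windows and in 5.94% of all windows. Several windows belong to the same gene and overlap, and the absence of these letters from this window says nothing of sites elsewhere.

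Other genes of the same pathways also had ratios of both signs. Of 32 further glycolysis genes 16 entered, with a median log2 ratio of 0.18, 1 at least 2-fold lower and 0 higher, where 2.38% and 2.29% of all genes were. That gene was SLC2A12, a glucose transporter, which read 60.8 with CTNNB1 siRNA, against 125 with control siRNA (-1.04), with -0.29 in its second probe set. BSG, the chaperone of the SLC16A lactate transporters at the cell surface, had 0.80 (889 with CTNNB1 siRNA, 510 with control siRNA), and the transporter SLC2A8 had -0.60. Of 44 further hypoxia genes 36 entered, with a median of 0.16, 3 at least 2-fold higher and 0 lower, where 2.29% and 2.38% of all genes were. With a 1.5-fold rule 6 were higher and 4 lower, where 11.2% and 7.61% of all genes were. The 4 lower ones, named after their values were seen, were STC2 (-0.996, just under 2-fold), HILPDA (-0.82), MXI1 (-0.77) and FLT1 (-0.71). The 6 higher ones were EPAS1, HMOX1 and STC1, given below, and BHLHE41 (0.91, dim), CITED2 (0.86) and DDIT4 (0.82). The last ones were also named after their values were seen.

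EPAS1, which encodes HIF2 alpha, read 2086 on the CTNNB1 siRNA array, against 973 on the control array (1.10), next to HIF1A at 0.23. HMOX1, heme oxygenase 1, a gene also driven by NRF2, read 572 with CTNNB1 siRNA, against 232 with control siRNA (1.30). STC1, a secreted glycoprotein gene, read 366 with CTNNB1 siRNA, against 105 with control siRNA (1.80), with 1.15 and 0.37 in its other probe sets. The names of these probe sets end in _x_at or _s_at, so each can read more than 1 transcript. Without such probe sets STC1 had no value, and 2 of the 24 further hypoxia genes that entered were at least 2-fold higher. EPAS1 fell short of 2-fold after loess (0.83), quantile normalization (0.84) and scaling to a common 2% trimmed mean (0.89).

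**Figure D5:**
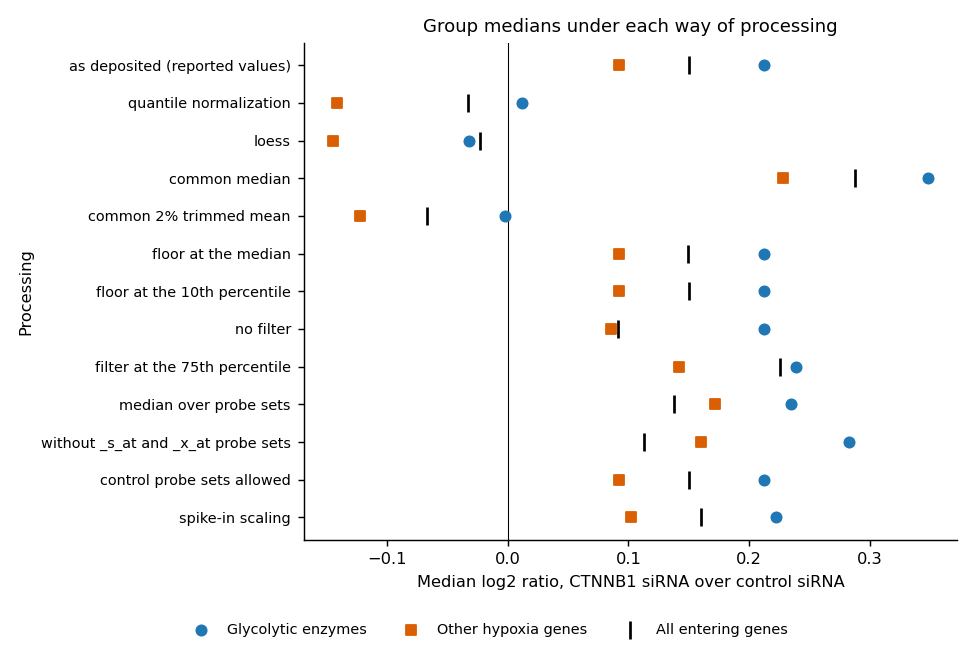
Median log2 ratio, CTNNB1 siRNA over control siRNA (x axis), of the glycolytic enzymes, the other hypoxia genes and all entering genes under each way of processing (y axis). As deposited the medians are 0.21, 0.09 and 0.15; scaling shifts all 3 together, and the enzymes lie to the right of the other hypoxia genes in each row.

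How the 2 arrays are scaled decides the sign of both group medians. Their difference is the same by construction where 1 factor scales a whole array, and it was 0.11 after loess, 0.15 after quantile normalization and 0.06 where each gene was read as the median of its probe sets. With both arrays scaled to 1 median the enzyme median was 0.35, and with loess it was -0.03, and the median of the other hypoxia genes was 0.23 and -0.14, while all genes had 0.29 and -0.02. Small positive ratios of single enzymes are therefore relative to the scaling. Of the 35 members, 17 kept 1 sign in each of the alternatives in which they entered, of 12 tried, and 18 did not. SLC2A1 ran from -1.22 to -0.57, EGLN3 from -0.76 to -0.41, CA12 from -0.84 to -0.35 and ANKRD37 from -1.28 to -0.93. ADM ran from 0.72 to 1.14, PFKFB3 from 0.57 to 0.96, P4HA1 from 0.25 to 0.63 and EGLN1 from 0.16 to 0.86. Among the enzymes ALDOA, TPI1, PGK1, ENO2 and PKM stayed above 0 and HK2 below 0, and the other 11 had both signs.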

How the data were processed

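Expression was measured on 2 biotin-labelled arrays. Per the submitters' processing notes, the authors used MAS5, which combines matching and mismatching probes into 1 linear signal intensity per probe set, and they deposited 54675 such intensities per array. Its version, target intensity and scaling, and any detection calls, are not stated there. The 2% trimmed mean was 271 on the CTNNB1 siRNA array and 233 on the control array.

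Names came from GEO's annotation of the platform (41097 with 1 symbol, 1801 with several, 11777 not listed), and symbols were updated by Entrez number to RefSeq. No normalization was added. Values under the 25th percentile, 13.8, were set to that floor, and probe sets with a mean under 49.1 were left out. Array control probe sets were not used for a gene. Calls were by size, 2-fold. The SDs are of log2 ratios between probe sets. The number of arrays limits the precision.

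The members, the gene lists and the rule for naming other genes were chosen with earlier results of these data known. All members are accounted for. Of the 2 further lists, genes past 2-fold were named, at most 6 per list, or the 3 largest ratios where fewer than 3 passed. The pairs of related genes were chosen after the values were seen. Alternatives were quantile, loess, median and trimmed mean scaling, 2 other floors, 2 other filters, 3 other choices of probe set, other group make-ups and a 1.5-fold rule. Scaling to spike-ins was added after the data were seen. The calculations (Python 3.11.15, numpy 2.4.6, pandas 2.3.3, statsmodels 0.14.6) were tested on simulated data.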

Additional observations from a re-analysis of the deposited data

How the results depend on the processing

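No paired analysis was possible because each group has 1 array. Only 4 scalings moved the medians by more than the probe set error of a median. The median log2 ratio of the glycolytic enzymes, 0.21 as deposited, was 0.012 after quantile normalization, -0.032 after loess, 0.35 with a common median and -0.0024 with a common trimmed mean. That of the other hypoxia genes, 0.09 as deposited, was -0.14, -0.14 and -0.12 after quantile normalization, loess and a common trimmed mean. The further glycolysis genes had -0.065, -0.058, 0.32 and -0.031, and the further hypoxia genes -0.11, -0.090, 0.29 and -0.059, under quantile normalization, loess, common median and common trimmed mean. The difference between enzymes and other hypoxia genes ran from 0.06 to 0.15 over the alternatives, and scaling an array by 1 factor cannot change it. Members at least 2-fold higher numbered 1 (ADM) with a common median and with spike-in scaling, and 2 (ADM, PFKFB3) with the 1.5-fold rule. Of all genes 3.77%, 2.37% and 11.2% were higher in these settings, in that order. Members at least 2-fold lower numbered 0 with a common median and with the stricter filter of the 75th percentile (ANKRD37 did not enter there), 2 (ANKRD37, SLC2A1) without _s_at and _x_at probe sets, where 19 members entered, and 3 (with CA12 and SLC2A1) with the 1.5-fold rule. Of all genes 1.46%, 0.43%, 2.75% and 7.61% were lower in these settings, in that order. Further glycolysis genes at least 2-fold lower numbered 0 after loess, with a common median, with the filter at the 75th percentile, with the median over probe sets and without _s_at and _x_at probe sets, and 2 (SLC2A12, GAPDHS) with no filter. Of all genes 2.05%, 1.46%, 0.43%, 2.26%, 2.75% and 7.20% were lower in these settings, in that order. Further hypoxia genes at least 2-fold lower numbered 2 (STC2, HILPDA, named after their values were seen) after quantile normalization, loess and a common trimmed mean. Of all genes 2.26%, 2.05% and 4.33% were lower in these settings, in that order. Over all genes, lower genes made up 50.9% of 2-fold calls as deposited, 27.9% with a common median and 80.9% with a common trimmed mean. Of 399 single-gene values, 2 moved by more than the probe set SD, BNIP3L (0.05 with the median over probe sets) and SLC2A1 (-1.22 without _s_at and _x_at probe sets). Dim genes such as ANKRD37, HK2 and ALDOC are limited by signal.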
